A study of Mus musculus with 6 samples.

Results

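The SOCS family holds 8 genes, Cish and Socs1 to Socs7, which encode suppressors of cytokine signalling. They were taken by name, and all 8 were found among the 19938 genes measured in whole ear skin of 6 mice on Affymetrix arrays. A gene was read from its brightest probe set over the 6 arrays among those that the platform annotation lists with 1 gene symbol.

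The samples came from a model of contact allergy in which FITC, a reactive fluorescent dye, sensitises the skin. There were 3 mice of genotype CLEC4C-DTR/+ and 3 littermate controls without the transgene, all aged 10 to 12 weeks. The CLEC4C-DTR transgene places the diphtheria toxin receptor under the CLEC4C promoter, which in humans is active in plasmacytoid dendritic cells, and cells that express it die when toxin is given. All 6 mice were injected with diphtheria toxin (200 ng on days -1, 1, 3 and 5) and had FITC at 0.5% on the abdomen on days 0 and 2 and on the right ear on day 6, and the FITC-treated ear was analysed. No ear without FITC and no mouse without toxin was among the samples, so effects of cell removal, genotype and sensitisation cannot be told apart. Each array held RNA of 1 mouse, and the number of arrays limits the precision of every value. In whole skin, fewer cells of a type and less RNA per cell cannot be told apart.

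SOCS proteins are the negative feedback arm of cytokine signalling through JAK kinases and STAT transcription factors. Activated STATs switch on several SOCS genes, and the proteins then bind phosphorylated receptors or kinases through an SH2 domain. Through the SOCS box at their carboxyl end they bring in elongins and the cullin Cul5, which mark the bound protein for degradation, and SOCS1 and SOCS3 also block JAK kinases directly. In skin, SOCS3 limits the STAT3 response of keratinocytes to cytokines of the IL-6 family, and SOCS1 limits the response to interferons.

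Upstream sequence is shown for members whose windows hold letters that STAT or interferon response factors are known to bind, since those factors are the textbook inducers of these genes. RefSeq promoter windows (GRCm38.p6, 250 bases before to 50 after the start) were matched for 4 of the 8 members, Cish, Socs1, Socs3 and Socs4. The letters searched on both strands were TTCNNNGAA, the STAT element; TTC and GAA parted by 4 bases, the spacing that STAT6 prefers; and GAAA repeated after 2 bases, an interferon response core. Sequences run 5′ to 3′ on the gene's strand, and capitals mark the match.
Socs3, chr11:117969452-117969560, minus strand: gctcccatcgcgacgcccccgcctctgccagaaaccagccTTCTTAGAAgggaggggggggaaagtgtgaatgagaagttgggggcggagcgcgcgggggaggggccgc
Socs1, chr16:10785564-10785659, minus strand: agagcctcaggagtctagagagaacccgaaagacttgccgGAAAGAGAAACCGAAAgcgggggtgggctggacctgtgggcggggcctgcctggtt
Cish, chr9:107296657-107296680, plus strand: ttTTCCTGGAAagTTCTTGGAAat
Socs3 held 1 match of TTCNNNGAA, at bases -154 to -146 from its start. Cish held 2 matches of it, at bases 1 to 9 and 12 to 20, that is, just inside its annotated transcript. At least 1 match stood in 8.30% of 32851 windows, and 2 or more in 0.457%. Socs1 held 2 overlapping matches of the interferon response core, at bases -83 to -74 and -77 to -68, where 3.44% of windows held at least 1 and 0.225% held 2 or more. The STAT6 spacing was in none of the 4 windows and in 6.95% of all. In the window of Socs4 none of the 3 sets of letters was found. Binding was not measured in these samples.

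Between the groups, Socs3 was the 1 member that passed an adjusted p of 0.05 in the limma fit over all genes. It was 2.22-fold higher in CLEC4C-DTR skin (adjusted p = 0.0397). Socs1, 1.31-fold higher, lay just outside the threshold (adjusted p = 0.0507). Of the 8 members 1 rose and none fell, where 9.32% of all genes passed, 5.01% toward higher and 4.31% toward lower values, so the count says little about the family as such. The median log2 difference was 0.09 over the members and -0.04 over all genes. The 3 values of one group lay entirely beyond those of the other in 4 of the 8 members (33.0% of all genes), with Socs1 and Socs3 higher (14.0% of all genes) and Socs5 and Socs7 lower (19.0%) in CLEC4C-DTR mice. The same 4 members had an unadjusted p under 0.05 (27.3% of all genes).

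**Figure D1:**
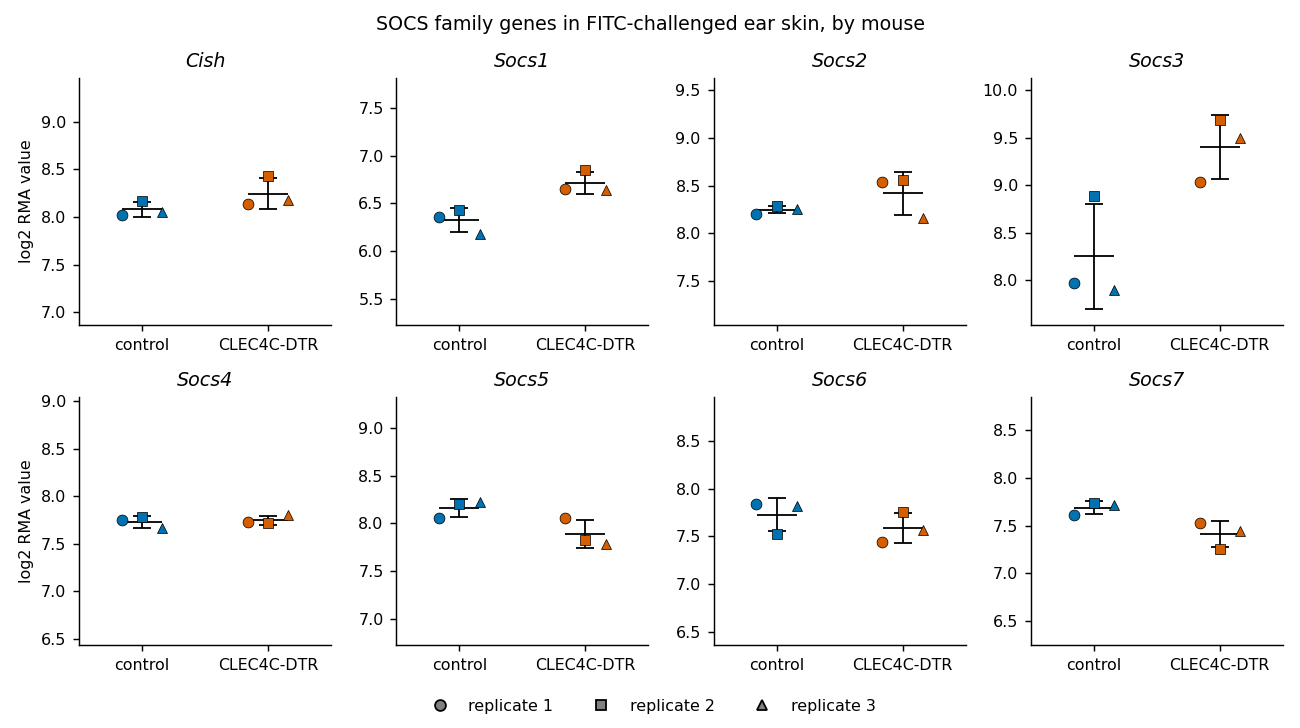
Log2 RMA values of the 8 SOCS family genes in FITC-challenged ear skin, with a point for each mouse (circle, square and triangle for replicates 1, 2 and 3) and the group mean with its SD (n = 3). Every panel spans the same number of log2 units, centred on its gene. Socs3 is at 9.03 to 9.68 in CLEC4C-DTR and 7.90 to 8.89 in control mice, and the other genes move less.

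Socs3, whose protein binds the shared IL-6 family receptor gp130 and the G-CSF receptor, read 9.03, 9.68 and 9.49 (log2) in CLEC4C-DTR replicates 1, 2 and 3. It read 7.98, 8.89 and 7.90 in control replicates 1, 2 and 3. All 3 CLEC4C-DTR mice were above all 3 controls, but the gap between the groups was 0.15 (log2), because control replicate 2 was far above the other controls and nearly reached CLEC4C-DTR replicate 1. The difference was 1.15 (SE 0.27, log2, 95% interval 0.53 to 1.78, limma adjusted p = 0.0397), which is larger than the SD of either group (0.33 and 0.55, n = 3). The exact permutation test gave p = 0.1, two-sided, the smallest that 3 against 3 allows. The dimmer of the 2 Socs3 probe sets gave a larger difference, 1.58 (SE 0.33, log2), and a limma adjusted p = 0.0301 in a fit over every single-symbol probe set, of which 8.94% passed. Its highest mice were again replicate 2 of each group, with 8.47, 9.45 and 8.88 in CLEC4C-DTR and 6.98, 8.04 and 7.05 in control replicates.

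The call of Socs3 rested on several single arrays. Its difference was 0.97 to 1.47 (log2) with any 1 array left out, and it passed without control replicate 2 (adjusted p = 0.0157) or CLEC4C-DTR replicate 1 (adjusted p = 0.0223), in fits by limma. It did not pass without CLEC4C-DTR replicate 2 (adjusted p = 0.111), CLEC4C-DTR replicate 3 (0.118), control replicate 1 (0.123) or control replicate 3 (0.146). Nor did it pass with robust variances (0.0603), unmoderated variances (0.203) or all probe sets of the table in the fit (0.0931). The share of all genes that passed moved too. With CLEC4C-DTR replicate 1, 2 or 3 left out it was 13.1%, 2.34% and 0.542%, and with control replicate 1, 2 or 3 left out 0.838%, 6.11% and 0.336%. With robust variances it was 8.90%, with unmoderated variances 0.00% and with all probe sets 0.267%.

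Socs1, the inhibitor of interferon and common gamma chain cytokine signals, was just outside the threshold. Its values were 6.65, 6.85 and 6.64 (log2) in CLEC4C-DTR and 6.36, 6.43 and 6.18 in control replicates 1, 2 and 3. The lowest CLEC4C-DTR value stood 0.21 above the highest control. The difference was 0.39 (SE 0.10, log2, 95% interval 0.16 to 0.62), or 1.31-fold, with a limma adjusted p = 0.0507. It passed after median centring (adjusted p = 0.0415), a further quantile normalisation (0.0476), among genes above the median level (0.0363) and with array weights (0.0436), settings in which 9.0%, 9.16%, 19.0% and 12.1% of the genes tested passed. It passed in none of the 6 limma fits with 1 array left out (adjusted p = 0.0543 to 0.176).

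Cish and Socs2, which are typical products of STAT5 signalling, differed little. CIS limits IL-2 and related signals and SOCS2 limits growth hormone signals. Cish read 8.13, 8.43 and 8.17 (log2) in CLEC4C-DTR and 8.02, 8.17 and 8.05 in control replicates 1, 2 and 3, so that the groups overlapped and only CLEC4C-DTR replicate 2 stood clearly above the controls. The difference was 0.17 (95% interval -0.07 to 0.40, limma adjusted p = 0.339). Socs2 read 8.53, 8.56 and 8.16 in CLEC4C-DTR and 8.21, 8.29 and 8.25 in controls. Its first and second CLEC4C-DTR mice were above all controls and the third was below all of them, and the difference was 0.17 (95% interval -0.10 to 0.44, adjusted p = 0.401). The dimmer Socs2 probe set gave 0.11 (adjusted p = 0.625) with the same mouse lowest. The intervals leave room for a rise of up to 1.32-fold for Cish and 1.36-fold for Socs2.

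The remaining members, whose proteins have longer amino-terminal parts and act mostly on growth factor receptors, showed no call. Socs5, a regulator of EGF receptor and IL-4 receptor signals, read 8.05, 7.82 and 7.79 (log2) in CLEC4C-DTR and 8.05, 8.20 and 8.23 in control replicates 1, 2 and 3. Its groups were apart by only 0.001, at replicate 1 of both. The difference was -0.27 (95% interval -0.51 to -0.04, limma adjusted p = 0.124).

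Socs7, known for binding insulin receptor substrates, read 7.53, 7.26 and 7.44 in CLEC4C-DTR and 7.61, 7.74 and 7.71 in controls, with a gap of 0.08. Its difference was -0.28 (95% interval -0.50 to -0.06, adjusted p = 0.103), much the size of that of Socs5. Socs6, which binds the stem cell factor receptor Kit, read 7.45, 7.76 and 7.57 in CLEC4C-DTR and 7.84, 7.53 and 7.82 in controls. The groups overlapped because replicate 2 was the highest mouse of one group and the lowest of the other, and the difference was -0.14 (95% interval -0.41 to 0.14, adjusted p = 0.509). The other 2 Socs6 probe sets gave 0.019 and -0.10, so the sign of Socs6 is not settled. Socs4, a regulator of the EGF receptor, had the smallest difference, at 7.72, 7.72 and 7.80 in CLEC4C-DTR and 7.75, 7.78 and 7.66 in controls. Its difference was 0.018 (95% interval -0.16 to 0.20, adjusted p = 0.908), and the interval reaches 1.15-fold higher.

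**Figure D2:**
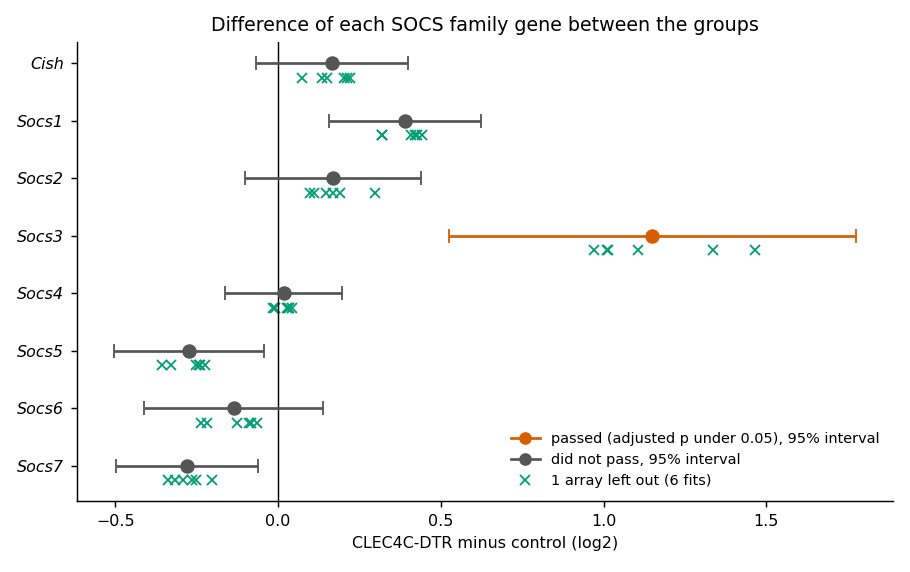
Difference between CLEC4C-DTR and control skin (log2) for each SOCS family gene, with limma's 95% interval; crosses give the difference in the 6 fits with 1 array left out. Socs3 (1.15) is the member that passed, the intervals of Socs1, Socs5 and Socs7 leave out 0 without an adjusted p under 0.05, and those of Cish, Socs2, Socs4 and Socs6 include it.

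Across single mice, the members varied within the groups as well. CLEC4C-DTR replicate 2 was the highest of its group for 5 of the 8 members, among them Cish, Socs1, Socs2 and Socs3. Control replicate 2 was the highest control for 6 of 8, among them the same 4. The range among controls was 0.99 (log2) for Socs3, while for the other members it was 0.08 to 0.31. Among CLEC4C-DTR mice the range of Socs3 was 0.65, against 0.09 to 0.40 for the others.

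By likeness of profile, measured as the root mean square difference over the 6 arrays after centring each gene on its own mean, the genes nearest to Socs3 were Fyb (0.09, log2), Nampt (0.10) and Klra2 (0.11), where the median of all other genes was 0.71. Fyb encodes an adaptor of T cells and myeloid cells, Nampt the rate-limiting enzyme of NAD salvage, and Klra2 a receptor of the Ly49 family, whose close relatives may share probes. Fyb read 9.22, 9.85 and 9.58 in CLEC4C-DTR and 8.29, 8.93 and 8.11 in controls. The group differences were 1.11 (log2) for Fyb, 1.18 for Nampt and 1.22 for Klra2. Choosing genes by their likeness to Socs3 fixes both these differences and the high control replicate 2, so they are a description and no test is given.

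Among the cytokines that signal through JAKs and STATs, 8 of 30 measured ligand genes rose, 1 fell and 21 did not pass, with a median difference of 0.28 (log2). Osm, oncostatin M, a ligand of the IL-6 family, rose 5.06-fold (log2 2.34, SE 0.41, adjusted p = 0.0188). It read 8.02, 9.59 and 9.36 in CLEC4C-DTR and 6.52, 7.20 and 6.22 in control replicates 1, 2 and 3, and control replicate 2 was again the highest control. Il10, an anti-inflammatory cytokine that acts through STAT3, rose 2.39-fold (adjusted p = 0.0264), Csf2, the growth factor GM-CSF, 1.76-fold (adjusted p = 0.0174), and Ebi3, a subunit of IL-27, 1.44-fold (adjusted p = 0.0142). Il5, a cytokine that sustains eosinophils, was the 1 ligand that fell and was picked for that (difference -0.36, adjusted p = 0.0368). It read 4.62, 4.72 and 4.64 in CLEC4C-DTR and 4.97, 4.96 and 5.12 in controls, below the median of every array (6.17 to 6.23). With 1 array left out Il5 passed in 0 limma fits (adjusted p = 0.0586 to 0.141). Il10 was also below those medians, at 4.41 to 4.46 in controls. Il6 and Ifng were picked after their values were seen, as textbook inducers of Socs3 and Socs1. Il6 read 8.79, 9.78 and 8.48 in CLEC4C-DTR and 7.28, 8.48 and 7.09 in controls, a difference of 1.40 that did not pass (adjusted p = 0.0751), with control replicate 2 at the level of CLEC4C-DTR replicate 3. Ifng read 7.05, 8.33 and 6.00 in CLEC4C-DTR and 5.55, 7.24 and 5.46 in controls, where the groups overlapped (difference 1.05, adjusted p = 0.331). Among ligands limma called 2 genes without CLEC4C-DTR replicate 2. It called 0 without CLEC4C-DTR replicate 3, control replicate 1 or control replicate 3, where 18, 14 and 13 had an unadjusted p under 0.05.

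Of 38 measured receptor genes, 13 rose, 2 fell and 23 did not pass, with a median of 0.24 (log2). Csf2rb2, a mouse beta chain for IL-3 that is close in sequence to Csf2rb, rose 1.95-fold (adjusted p = 0.00937) and also passed in each of the 6 fits with 1 array left out. Il7r, the IL-7 receptor alpha chain, rose by 1.21 (log2, adjusted p = 0.0164) and Il21r, the IL-21 receptor, by 0.89 (adjusted p = 0.0169). Ghr, the growth hormone receptor, whose signal SOCS2 limits, fell (difference -0.98, adjusted p = 0.0125), from 8.33, 8.49 and 8.78 in controls to 7.71, 7.41 and 7.54 in CLEC4C-DTR mice. The other receptor that fell was Il20rb, a chain for the IL-20 group of cytokines (difference -0.89, adjusted p = 0.0418). A pair from among the receptor chains that SOCS3 binds was picked after their values were seen. Csf3r, the G-CSF receptor of neutrophils, rose 5.16-fold (adjusted p = 0.0184), while Il6st, which encodes gp130, differed by -0.14 (adjusted p = 0.550). Receptor calls numbered 5 without CLEC4C-DTR replicate 2 and 2 without control replicate 1, and leaving out CLEC4C-DTR replicate 3 or control replicate 3 left 1.

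All 9 measured JAK and STAT genes had higher means in CLEC4C-DTR skin, and 1 of them passed. Stat4, which carries IL-12 signals, rose 3.99-fold (log2 2.00, SE 0.28, adjusted p = 0.0137). Stat3, picked after its values were seen as the main inducer of Socs3, read 10.30, 10.47 and 10.42 in CLEC4C-DTR and 9.96, 10.22 and 9.87 in controls (difference 0.38, adjusted p = 0.0654). Stat4 passed in 3 of the 6 fits with 1 array left out, those without CLEC4C-DTR replicate 1 or 2 or control replicate 2. Without CLEC4C-DTR replicate 3, control replicate 1 or control replicate 3 limma called 0 of the 9, with 4, 3 and 3 at an unadjusted p under 0.05, and it called 2 without CLEC4C-DTR replicate 1 and 3 without control replicate 2.

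Inhibitors of the pathway outside the SOCS family did not pass in limma (0 of 10, of which 3 had an unadjusted p under 0.05). The closest were the phosphatases Ptpn1, which differed by 0.55 (adjusted p = 0.0512), and Ptpn2, which differed by 0.56 (adjusted p = 0.0701), both with groups that did not overlap. Limma called 1 of the 10 without CLEC4C-DTR replicate 1 and 1 without control replicate 2.

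The machinery that the SOCS box recruits was nearly level, with a median of -0.02 over 9 measured genes. Only Rnf7, the RING subunit that works with Cul5, passed, which fell (difference -0.33, adjusted p = 0.0473), and it passed in none of the 6 limma fits with 1 array left out (adjusted p = 0.0502 to 0.172) nor after median centring (adjusted p = 0.0720). Each of those 6 fits left 1 or 2 of the 9 at an unadjusted p under 0.05. Of 26 other SOCS box proteins, the Asb, Spsb, Wsb and Rab40 genes, none passed in limma (0 of 26); 6 had an unadjusted p under 0.05, and the median was 0.015. The smallest p were those of Wsb2 (difference 0.50, adjusted p = 0.0528) and Asb3 (-0.41, adjusted p = 0.0760). Limma called 1 of the 26 without CLEC4C-DTR replicate 1 and 1 without CLEC4C-DTR replicate 2.

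**Figure D3:**
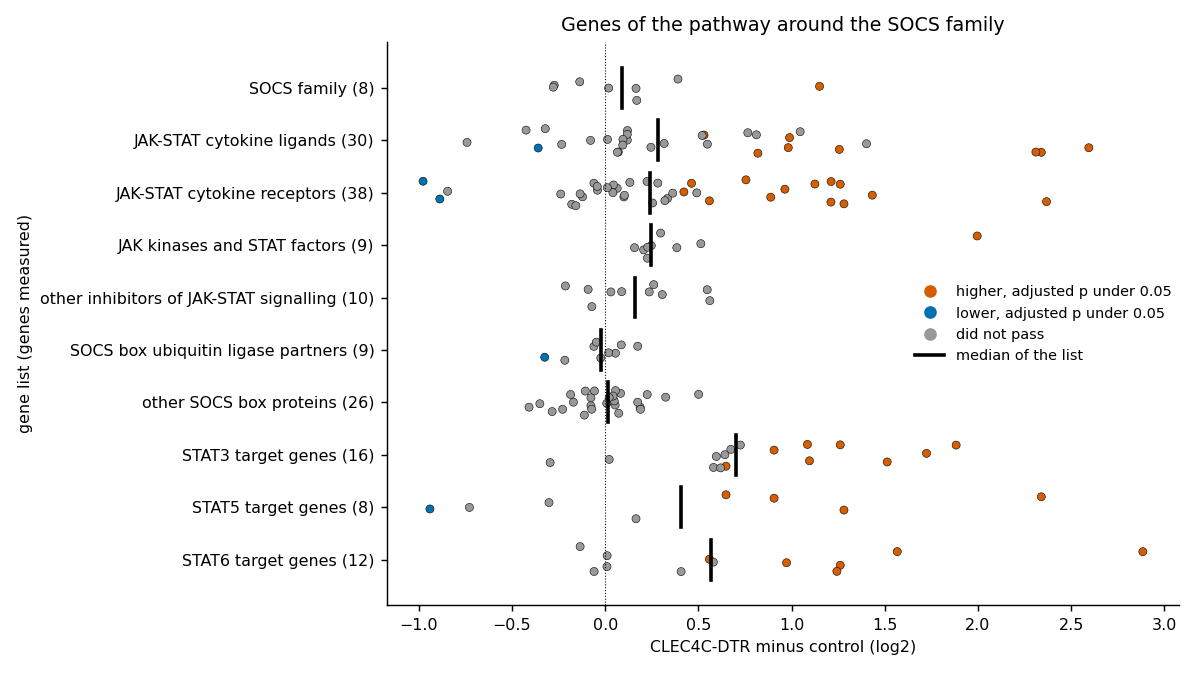
Difference between CLEC4C-DTR and control skin (log2) for the SOCS family and for 9 lists of genes around it, with a point for each gene, coloured by its limma call, and a bar at the median of the list. STAT3 and STAT6 target genes have medians of 0.70 and 0.57, while the SOCS box partners and other SOCS box proteins lie around 0.

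Genes known to be switched on by STATs were grouped by factor, leaving out the SOCS genes. Among 16 STAT3 targets there were 8 rises and no fall, and the other 8 did not pass, with a median of 0.70 (log2) and 15 at an unadjusted p under 0.05. Lcn2, the iron-binding lipocalin, rose 3.30-fold (adjusted p = 0.00937) and held in all 6 fits that left an array out. Reg3g, an antimicrobial lectin, rose by 1.10 (log2, adjusted p = 0.0178), Il4ra, the IL-4 receptor alpha chain, by 1.26 (adjusted p = 0.0178) and Bcl2l1, a survival factor, by 0.65 (adjusted p = 0.0185). Reg3g read 4.17 to 4.56 in controls, below the median of every array. The number of calls was 1 without CLEC4C-DTR replicate 2, CLEC4C-DTR replicate 3 or control replicate 3, and 2 without control replicate 1.

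Of 8 STAT5 targets 4 rose, 1 fell and 3 did not pass. Osm and Bcl2l1, given above, and the kinase Pim1 (0.91, adjusted p = 0.0192) rose, as did Il2ra, the IL-2 receptor alpha chain (1.28, adjusted p = 0.0277), and Ccnd2, cyclin D2, differed by -0.94 (adjusted p = 0.0142) and was the gene that fell. Calls in this list numbered 2 without CLEC4C-DTR replicate 2 and 0 without CLEC4C-DTR replicate 3, control replicate 1 or control replicate 3, where 6, 7 and 6 had an unadjusted p under 0.05 in limma. Of 12 STAT6 targets 6 rose and none fell, led by the macrophage arginase Arg1 (2.89, adjusted p = 0.00119) and the mannose receptor Mrc1 (1.57, adjusted p = 0.0123), with Il4ra and the decoy receptor Il13ra2 (0.56, adjusted p = 0.0178). Without CLEC4C-DTR replicate 2, CLEC4C-DTR replicate 3, control replicate 1 or control replicate 3, 2 of the 12 passed. Some of these targets, such as Arg1 and Lcn2, were known from an earlier look at these data to be higher, so the counts of these lists are a description.

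Set side by side, the members and the target lists differed in size of change. The STAT5 product Cish (0.17) and Socs2 (0.17) lay below the median of the STAT5 list (0.41), and Socs3 (1.15) above that of the STAT3 list (0.70). All 3 lay within the spread of those lists. The STAT5 list ran from -0.94 (Ccnd2) to 2.34 (Osm), with Ccnd3 at 0.165, and the STAT3 list from -0.30 (Ccnd1) to 1.88 (Saa3). These gaps between genes were not tested.

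**Figure D4:**
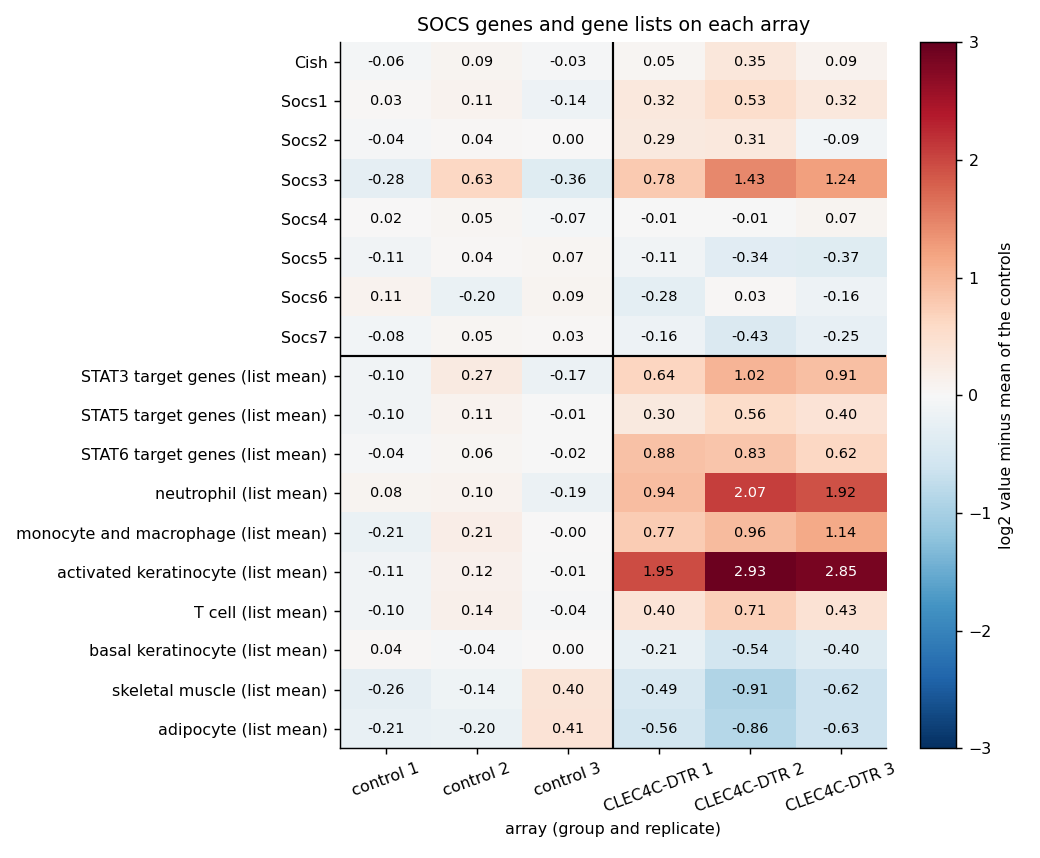
Log2 value minus the mean of the controls for the 8 SOCS genes and, as means over their genes, for target and cell type lists, on each of the 6 arrays. In control replicate 2, Socs3 is at 0.63, the STAT3 list at 0.27 and the neutrophil list at 0.10.

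Markers of several cell types moved with the groups. Among 12 neutrophil markers there were 8 rises and no fall, and 4 did not pass (Ngp, Ltf, Camp and Elane). The list mean, relative to its mean in controls, was 0.94 to 2.07 (log2) in CLEC4C-DTR mice and -0.19 to 0.10 in controls. Of 11 monocyte and macrophage markers 8 rose and 1 fell (Mertk), with list means of 0.77 to 1.14 against -0.21 to 0.21. Of 11 activated keratinocyte genes all 11 rose, with 1.95 to 2.93 against -0.11 to 0.12. Of 10 T cell markers 2 rose (Cd2 and Icos), with 0.40 to 0.71 against -0.10 to 0.14. Other tissue markers were lower: 4 of 10 skeletal muscle genes fell (Myh1, Tnnt3, Tnni2 and Mylpf), with list means of -0.91 to -0.49 against -0.26 to 0.40, and 3 of 7 adipocyte genes fell (Adipoq, Fabp4 and Pparg), with -0.86 to -0.56 against -0.21 to 0.41. Of 8 basal keratinocyte genes 1 fell (Krt15), with -0.54 to -0.21 against -0.04 to 0.04. In limma fits with 1 array left out, rises numbered 2 to 10 for neutrophil and 1 to 8 for monocyte and macrophage markers. They numbered 8 to 11 for activated keratinocyte and 0 to 4 for T cell markers. Falls numbered 0 to 5 for skeletal muscle and 0 to 4 for adipocyte and for basal keratinocyte genes. No skeletal muscle or adipocyte gene passed without CLEC4C-DTR replicate 2, CLEC4C-DTR replicate 3, control replicate 1 or control replicate 3. In those fits 6, 7, 10 and 7 skeletal muscle genes had an unadjusted p under 0.05 in limma, as did 6 adipocyte genes in each. The part of these cell types in the differences of Socs3, Socs1, Socs5 and Socs7 was not tested.

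Among the 3 controls, Socs3 lay at -0.28, 0.63 and -0.36 around the mean of the controls in replicates 1, 2 and 3. The neutrophil list lay at 0.08, 0.10 and -0.19, the STAT3 list at -0.10, 0.27 and -0.17 and the monocyte and macrophage list at -0.21, 0.21 and 0.00. All 3 lists and Socs3 were highest in control replicate 2. So were other lists, such as T cell (0.14) and mast cell (0.22) markers and cytokine ligands (0.21). Skeletal muscle (-0.14) and differentiated keratinocyte genes (-0.18), among others, were not highest there. Control replicate 2 is 1 mouse, and the part of any of these cell types in its Socs3 level was not tested. With that mouse left out, the difference of Socs3 was 1.47 (SE 0.19, log2, limma adjusted p = 0.0157).

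Other facts of the arrays bear on all members alike. Medians over all probe sets were 6.17 to 6.23 (log2), and no pair of arrays held identical values. The keratins Krt5 and Krt14 read 11.94 to 12.34 on all arrays, as skin should. Xist read 11.06, 10.70 and 10.86 in CLEC4C-DTR and 11.18, 11.27 and 11.20 in control replicates 1, 2 and 3, groups that did not overlap (difference -0.34, limma adjusted p = 0.0778). The Y-linked genes Kdm5d, Uty and Eif2s3y read 2.53 to 4.03 on all 6 arrays. Of 8 measured markers of plasmacytoid dendritic cells, the cells the transgene is aimed at, 7 had lower means in CLEC4C-DTR skin, with a median difference of -0.22 (log2). Over all genes, 11609 of 19938 had lower means. None of the 8 markers passed in limma (0 of 8), and 3 had an unadjusted p under 0.05. Of these, Tcf4 and Smim5 were lower, while Bst2 was higher (difference 0.57, adjusted p = 0.140). The list mean of the 8 markers was -0.21 to -0.06 in CLEC4C-DTR mice and -0.05 to 0.04 in controls. Every CLEC4C-DTR mouse was below every control, but CLEC4C-DTR replicate 1 (-0.061) and control replicate 1 (-0.054) nearly met. Levels differed widely within the list. Siglech read 5.417 to 5.519 in CLEC4C-DTR and 5.409 to 5.835 in control mice, groups that overlapped (limma adjusted p = 0.378). Ly6d read 11.145 to 11.5 on all arrays. In whole skin these genes need not be read from plasmacytoid dendritic cells alone, and whether those cells were fewer was not tested.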

How the data were processed

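The deposited values are log2 RMA values, per the series' design text, 1 table for the 6 arrays. The RMA program was not given in the sources used here, while build mm8 is named in the submitters' processing notes, with no role. RMA forces arrays to 1 distribution, which hides any shift common to most genes. Of 35556 probe sets, 21789 list 1 symbol, which gave 19938 genes, with the brightest probe set each and no filter on level. Groups (3 and 3 mice) were compared with limma 3.58.1 in R 4.3.3 (lmFit, eBayes, two-sided, no covariate), with Benjamini-Hochberg adjustment over all genes and a threshold of 0.05. All adjusted p-values are from limma. Differences are log2 values of CLEC4C-DTR minus those of controls.

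The members and the lists were chosen with earlier results of these data known. Named genes were the 8 members, up to 4 called genes of each pathway list with the smallest p (2 where none was called) and the 3 genes most like each called member. Every other gene named, such as Il5, Il20rb, Il2ra and the cell type markers, was picked after its values were seen. A further list is counted in the pathway totals and is not reported here. Simulated data were given independent errors, with variances drawn from limma's fit to these arrays. In them limma recovered 10, 44, 50 and 50 of 50 genes changed by 0.5, 1, 2 and 3 (log2). Far fewer genes were changed there than passed here, and no effect shared by the genes of an array was simulated. The shares recovered need not hold for these data. Alternatives varied the scaling, the probe sets tested, the variance model, a replicate block and leaving out each array.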

Additional observations from a re-analysis of the deposited data

How the results depend on the processing

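The number of SOCS genes that passed, 1 with all arrays and the deposited scale, was 2 after median centring, after a further quantile normalisation, among genes above the median level, with array weights and with the replicate block, where Socs1 joined Socs3 each time. It was 0 with robust variances (4 at an unadjusted p under 0.05), without moderation of variances (3) and with all probe sets of the table (4), and 0 to 1 with an array left out. Over all genes 1858 passed, with 998 higher and 860 lower. Median centring gave 1150 higher and 644 lower and left every SOCS gene on its side of 0. The total was 67 to 2617 with an array left out, 95 with all probe sets and 0 without moderation, where 4387 had an unadjusted p under 0.05. Of 164 genes in the pathway lists 38 passed, and 59 did with the replicate block, 3 with all probe sets, 0 without moderation (59 at an unadjusted p under 0.05) and 4 to 49 with an array left out. Socs4 lay between -0.015 and 0.043 with an array left out, below 0 without CLEC4C-DTR replicate 3 (-0.01) or control replicate 3 (-0.015), and Socs6 read 0.019 from a dimmer probe set, an alternative added after seeing the data.

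The labels do not say whether the replicate numbers pair the mice, and the main fit did not take them to. Deviations of same-numbered arrays correlated at -0.06, 0.22 and 0.10. CLEC4C-DTR replicates 2 and 3 correlated best with the control of the same number, and replicate 1 with control replicate 3 (0.18). These values do not settle whether the mice or arrays were paired. With the number as a block Socs3 had an adjusted p of 0.00906 and Socs1 of 0.0422, in a fit where 10.5% of all genes passed. Other scalings moved the median of all genes by under 0.05 (log2). With 3 mice per group, the 95% intervals of Cish, Socs2, Socs4 and Socs6 include 0 and do not show that these genes were level.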
